A study of Homo sapiens with 6 samples.

Results

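The genes described here encode the phagocyte NADPH oxidase, the enzyme complex with which neutrophils and macrophages make superoxide. They are CYBB and CYBA (the membrane subunits), NCF1 and NCF4 (cytosolic subunits), and RAC1 and RAC2 (the small GTPases of the complex). The 6 genes were chosen by name, and all 6 passed the filter on low counts, among 18514 genes tested and 52992 genes with a matched transcript. They were measured by RNA-sequencing of NB4, a cell line established from acute promyelocytic leukemia. All 6 samples carried Cas9 and a vector for a doxycycline-inducible small guide RNA (sgRNA), and were given doxycycline at 1 µg/ml for 7 days, then cultured without it. The groups were LacZ, whose sgRNA targets a bacterial gene (genotype WT), and sg1 and sg5, whose sgRNAs target ARID1A (genotype ARID1A-deficient), with 2 replicates each. Cells were sorted for fluorescent reporters of both vectors, which does not ensure that every cell was edited, and the labels name no differentiating agent.

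The catalytic core of the oxidase, gp91phox (also named NOX2), is encoded by CYBB and passes electrons from NADPH across the membrane to oxygen. It is held in the membrane by p22phox, the product of CYBA, which is also the docking site for the cytosolic organizer p47phox, the product of NCF1. On stimulation, p47phox is phosphorylated and moves to the membrane with p40phox (NCF4), and a Rac GTPase loaded with GTP joins them. RAC2 is restricted to blood cells, whereas RAC1 is found in most tissues. Loss of CYBB, CYBA, NCF1 or NCF4 function underlies chronic granulomatous disease, and expression of CYBB is known to rise as granulocytes mature.

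NCF1 has to be read beside its near-identical copies NCF1B and NCF1C, which lie on the same chromosome and are annotated as pseudogenes. The sequences around the start of exon 2 are shown because they hold the dinucleotide that separates the functional gene from its copies, with the GT repeat in capitals (transcripts of GENCODE release 29, 5′ to 3′ along each transcript):
NCF1: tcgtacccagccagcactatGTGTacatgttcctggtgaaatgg
NCF1B: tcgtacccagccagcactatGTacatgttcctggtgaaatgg
NCF1C: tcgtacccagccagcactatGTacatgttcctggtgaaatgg
The repeat lies at chr7:74777267-74777270 in NCF1 (plus strand), chr7:73223878-73223879 in NCF1B (plus strand) and chr7:75168709-75168710 in NCF1C (minus strand) on GRCh38, in exon 2 of NCF1-201, NCF1B-201 and NCF1C-201. Both copies lack 2 of the bases that NCF1 has. Of the 1366 stretches of 31 bases in NCF1-201, 91.7% were also found in transcripts of other genes, all of them in 2 genes, NCF1B and NCF1C. Such stretches were absent from other genes for CYBB-201, CYBA-201, NCF4-201 and NCF4-202, made up 0.2% of RAC2-201 and made up 20.1% of RAC1-201, mostly shared with the pseudogene RAC1P2. The estimated counts of NCF1, and to a lesser degree those of RAC1, therefore depend on how the authors' software divided shared reads.

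Promoter sequences from RefSeq (GRCh38.p14) were at hand for 3 of the 6 genes, CYBB, CYBA and NCF1. They were searched for GAGGAA, the core of the sites bound by PU.1, the product of SPI1 and a known activator of oxidase genes, on both strands of the 300 bases from 250 before to 50 after the start. The 30-base windows with a match are shown because this core was shared by CYBB and NCF1, with the match (here TTCCTC, the opposite strand) in capitals:
CYBB: tgctgttttcatTTCCTCattggaagaaga
NCF1: gacaaaagcgacTTCCTCtttccagtgcat
The windows lie at chrX:37779999-37780028 and chr7:74773954-74773983, both on the strand of the gene, and the matches begin at -48 and -45 relative to the RefSeq start. In GENCODE the genes start earlier, at chrX:37780011 and chr7:74773962, so both matches lie within the genes as annotated there. The window of CYBA held no match. Since 27.9% of 35116 promoters searched in the same way held the core, a match is a description only.

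Library totals lay between 46131178 and 54843745 estimated counts, of which 95.4% to 95.5% belonged to matched transcripts. On the first principal component of log2 CPM, which held 34.4% of the variance, the first sg1 library (replicate 1) and the second sg5 library (replicate 2) stood apart at 34.3 and 46.8, against -30.3 to -11.3 for the other 4 samples. The log2 fold changes of the 6 genes without these 2 libraries are given after the joined comparison. ARID1A itself, the targeted gene, measured 155.0 and 190.7 CPM in LacZ, 211.0 and 191.1 for sg1, and 123.7 and 145.1 for sg5, with FDR 0.993 in sg1 and 0.661 in sg5. Its RNA was not lower in the samples labelled sg1, and since Cas9 can disrupt a protein without lowering its RNA, this level does not check the labels. The promyelocyte markers MPO, AZU1, PRTN3, CTSG and CD33 were all expressed, with a summed level of 14024 to 17709 CPM carried mainly by MPO, but ELANE, a defining gene of promyelocytes, had only 1 to 9 counts per sample. Markers of T cells, B cells, erythroid cells, monocytes and fibroblasts summed, list by list, to at most 11.9 CPM in any sample.

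The 6 genes spanned a wide range of levels when compared per transcript length, in TPM (transcript abundance scaled by length and depth). CYBA was highest, at 428.5 and 473.2 TPM in LacZ, 528.7 and 462.5 for sg1, and 450.9 and 417.4 for sg5, with a mean of 460.2 ± 39.5 (SD, n = 6), above 98.7% of the genes tested. Both GTPases followed, RAC2 at 282.2 ± 18.03 and RAC1 at 247.0 ± 23.6. NCF4 lay at 163.8 ± 23.3, CYBB at 83.3 ± 16.9 and NCF1 at 21.0 ± 4.83 TPM. The order was CYBA, RAC2, RAC1, NCF4, CYBB, NCF1, and only RAC2 and RAC1 overlapped among neighbours (259.7 to 302.1 against 218.8 to 274.7 TPM). NCF1 remained above 68.8% of the genes tested.

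**Figure D1:**
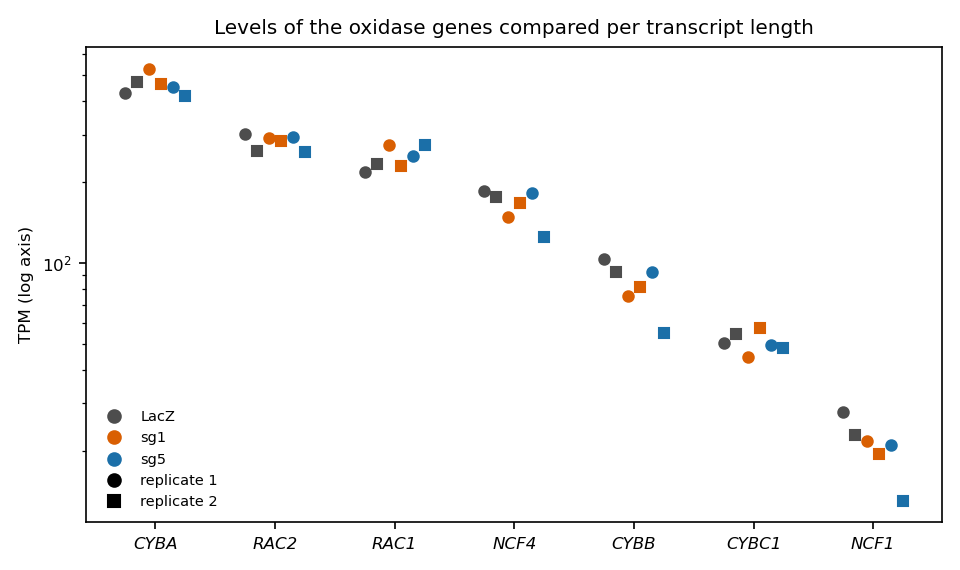
TPM (log axis) of the 6 oxidase genes and of CYBC1 in every sample, with color for the group and shape for the replicate. CYBA is highest in all 6 samples (417.4 to 528.7 TPM), RAC1 and RAC2 overlap, and NCF1 is lowest, at 13.0 to 27.8 TPM.

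Partners of the complex were also measured. CYBC1, which encodes a chaperone needed to assemble the membrane subunits, had 50.8 ± 4.46 TPM. Of the GTPases that are not members, RAC3 had 97.3 ± 11.5 TPM and RAP1A 46.9 ± 3.75. Of these 3 partners 0 were called, with joined log2 fold changes (ARID1A-deficient against LacZ, in the fit described next) of -0.05 for CYBC1, -0.11 for RAC3 and -0.08 for RAP1A. Over the samples, NCF4 was at 6.64 to 9.55 times the TPM of NCF1, which depends on how reads shared with NCF1B and NCF1C were divided.

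To ask whether ARID1A deficiency altered the membrane subunits, levels were compared in CPM (counts scaled to library size, with TMM as a correction for composition). CYBB (ENSG00000165168, chrX:37780011-37813461, plus strand) measured 313.9 and 285.8 CPM in LacZ, 240.0 and 241.0 for sg1, and 292.2 and 178.5 for sg5. In 3 of the 4 ARID1A-deficient samples CYBB lay below both controls, but replicate 1 of sg5 lay between them, so the groups overlapped. The log2 fold change was -0.32 in sg1 (SE 0.20; 95% interval -0.78 to 0.14; FDR 0.993) and -0.35 in sg5 (SE 0.20; 95% interval -0.81 to 0.11; FDR 0.706), and neither passed the FDR of 0.1. The annotated gene AF241726.2, which spans CYBB on the same strand, had 0 counts in every sample. These are differences in bulk RNA, in which fewer cells of a type and less RNA per cell cannot be told apart.

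CYBA (ENSG00000051523, chr16:88643283-88651152, minus strand) measured 208.5 and 232.5 CPM in LacZ, 269.5 and 227.4 for sg1, and 220.3 and 209.3 for sg5. Only replicate 1 of sg1 exceeded both controls, and the other 3 ARID1A-deficient samples fell between them. Relative to LacZ, CYBA had a log2 fold change of 0.17 in sg1 (95% interval -0.12 to 0.46) and -0.04 in sg5 (95% interval -0.33 to 0.25), with FDR 0.993 and 0.952. With both sgRNAs joined, the interval ran from 0.879-fold to 1.25-fold.

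Among the cytosolic subunits, NCF1 (ENSG00000158517, chr7:74773962-74789315, plus strand) measured 23.7 and 17.8 CPM in LacZ, 18.8 and 14.8 for sg1, and 17.5 and 11.1 for sg5. Replicate 2 of sg5 was the lowest, and replicate 1 of sg1 overlapped the controls. Against LacZ the log2 fold change was -0.30 in sg1 (SE 0.24; 95% interval -0.85 to 0.25; FDR 0.993) and -0.54 in sg5 (SE 0.24; 95% interval -1.09 to 0.02; FDR 0.680). The sg5 value was the largest difference from LacZ among the 6 genes in either sgRNA, yet its interval included no change.

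Its copies were examined in the same fit. NCF1, NCF1B and NCF1C together had 2299 and 1554 estimated counts in LacZ, 1687 and 1333 for sg1, and 1508 and 1047 for sg5, of which NCF1 held between 49.3% and 57.7%. NCF1B measured 7.95 and 6.15 CPM in LacZ, 6.09 and 7.04 for sg1, and 5.37 and 3.74 for sg5, and NCF1C measured 12.04 and 6.88, 8.42 and 8.17, and 9.25 and 5.87 CPM in the same order. Against LacZ the log2 fold change in sg5 was -0.63 for NCF1B (95% interval -1.19 to -0.08, FDR 0.661) and -0.32 for NCF1C (FDR 0.790). In sg1 these were -0.10 and -0.19. Neither copy was called, although the sg5 interval of NCF1B excluded 0. The counts of all 3 were lowest in replicate 2 of sg5. When they were summed to 1 feature, the log2 fold change was -0.23 in sg1 and -0.50 in sg5 (95% interval -1.01 to 0.02; FDR 0.682), close to the values of NCF1 alone.

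NCF4 (ENSG00000100365, chr22:36860988-36878015, plus strand) measured 183.0 and 177.5 CPM in LacZ, 149.9 and 169.1 for sg1, and 182.9 and 127.6 for sg5. The lowest values were those of the 2 libraries that stood apart, and replicate 1 of sg5 matched the controls. Its log2 fold change was -0.18 in sg1 (95% interval -0.56 to 0.21) and -0.22 in sg5 (95% interval -0.60 to 0.17), with FDR 0.993 and 0.758. NCF4 overlaps NCF4-AS1 on the opposite strand, which had 11 to 27 counts against 6449 to 9642 for NCF4.

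Both GTPase genes differed little between groups. RAC1 (ENSG00000136238, chr7:6374523-6403977, plus strand) measured 290.7 and 300.8 CPM in LacZ, 366.9 and 309.7 for sg1, and 337.4 and 372.1 for sg5. It was the only one of the 6 genes in which all 4 ARID1A-deficient samples lay above both controls, which held for 9.72% of all genes tested. The highest values again belonged to the 2 libraries that stood apart. The log2 fold change was 0.19 in sg1 (SE 0.13; 95% interval -0.10 to 0.48; FDR 0.993) and 0.26 in sg5 (SE 0.13; 95% interval -0.03 to 0.55; FDR 0.685).

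RAC2 (ENSG00000128340, chr22:37225261-37244448, minus strand) measured 291.7 and 255.2 CPM in LacZ, 299.6 and 279.4 for sg1, and 297.2 and 267.1 for sg5. In each group replicate 1 was the higher, and the 3 groups overlapped. On the log2 scale the difference from LacZ was 0.08 in sg1 (95% interval -0.20 to 0.37) and 0.05 in sg5 (95% interval -0.24 to 0.33), with FDR 0.993 and 0.939. It was the most even of the 6 genes, with a joined interval of 0.881-fold to 1.24-fold.

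**Figure D2:**
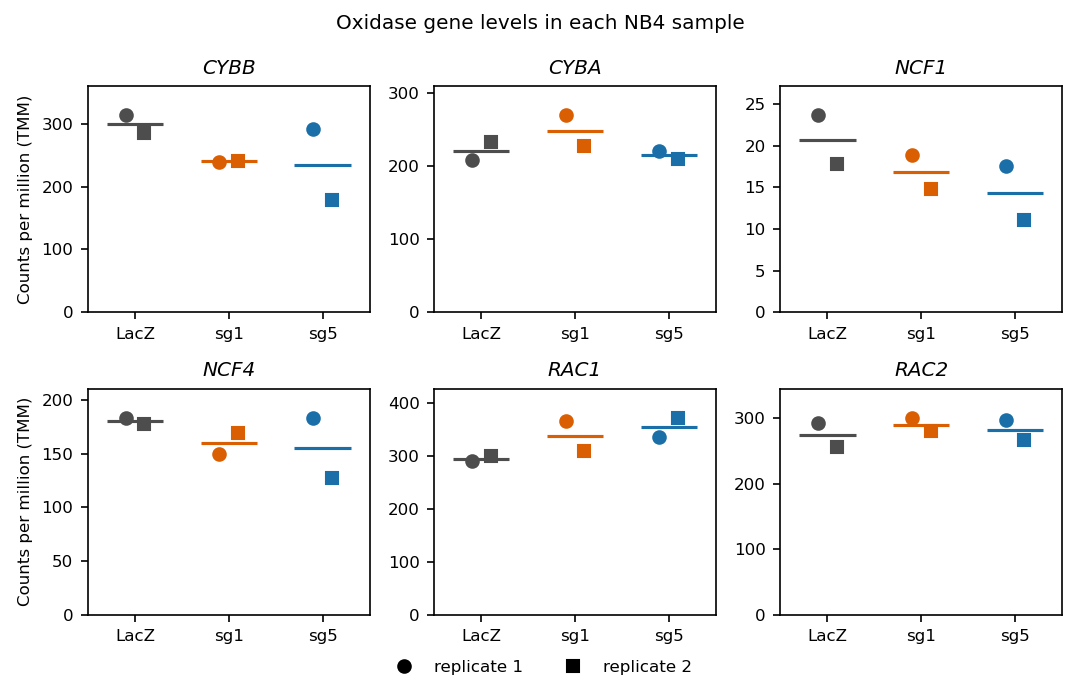
CPM of each oxidase gene by group, with 1 point per sample (circle, replicate 1; square, replicate 2) and a bar at the group mean; each vertical axis starts at 0. Replicate 2 of sg5 is the lowest sample for CYBB (178.5), NCF1 (11.1) and NCF4 (127.6) and the highest for RAC1 (372.1).

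Taken over the 6 genes, 0 were called in sg1 against LacZ, where 0.0378% of all genes tested were called, and 0 in sg5 against LacZ, where 0.0972% were called. The joined comparison of ARID1A-deficient against LacZ likewise called 0 of 6, against 0.167% of all genes. At an unadjusted p of 0.05 edgeR also gave 0 of 6 in each of these comparisons. DESeq2 called 0 of 6 in sg1, sg5 and the joined comparison, against 0.501%, 1.14% and 1.46% of all genes with an adjusted p, and edgeR without the low-count filter called 0 of 6 against 1.05%, 1.92% and 2.13%. No gene of the 6 had all 4 ARID1A-deficient samples below both controls, which held for 10.4% of all genes. Both sgRNA comparisons share the LacZ samples, so their log2 fold changes are not independent of each other.

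The joined log2 fold changes were -0.42 for NCF1 (95% interval -0.89 to 0.05; FDR 0.739), -0.33 for CYBB (95% interval -0.73 to 0.06; FDR 0.742) and -0.20 for NCF4 (95% interval -0.53 to 0.13; FDR 0.773). They were 0.23 for RAC1 (95% interval -0.03 to 0.48; FDR 0.739), 0.07 for CYBA and 0.06 for RAC2. These intervals bound what the samples could hide. They reach down to 0.540-fold for NCF1 and 0.603-fold for CYBB, whereas for RAC1 they run from 0.982-fold to 1.40-fold.

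Which libraries entered the fit mattered. Leaving out replicate 1 of sg5 keeps only replicate 2 in that group, a library that stood apart and had the lowest CYBB (178.5 CPM). Without replicate 1 of sg5, the joined comparison called CYBB (log2 fold change -0.53, FDR 0.0902), so that 1 of 6 was called against 0.978% of all genes. Without both libraries that stood apart, NCF1 was called in sg1 (log2 fold change -0.49, FDR 0.0718) and in the joined comparison (log2 fold change -0.36, FDR 0.0725), against 2.2% and 4.2% of all genes. Keeping 1 sample each of sg1 and sg5, that fit assumes that they vary like the LacZ samples. With all 6 samples, chi-square per degree of freedom between replicates was 17.74 for LacZ, 63.25 for sg1 and 77.59 for sg5. That fit may thus understate the spread, which leaves its calls uncertain. It called 0 of 6 in sg5, against 4.09% of all genes. Under it CYBB was not called, and its log2 fold change was -0.32 in sg1 but -0.04 in sg5, where it had been -0.35, and -0.18 joined.

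Most other differences also became smaller without both libraries. NCF4 moved from -0.18 to -0.09 in sg1, from -0.22 to 0.02 in sg5 and from -0.20 to -0.04 joined. RAC1 moved from 0.19 to 0.07 in sg1, from 0.26 to 0.19 in sg5 and from 0.23 to 0.13 joined. CYBA moved from 0.17 to 0.04 in sg1 and from 0.07 to 0.02 joined, and NCF1 from -0.54 to -0.24 in sg5. RAC2 in sg5 became larger, from 0.05 to 0.12, as did NCF1 in sg1, from -0.30 to -0.49. A single library was enough for several of these moves. CYBB in sg5 was -0.731 without replicate 1 of sg5 and -0.045 without replicate 2, and NCF1 was -0.885 and -0.249 in the same fits. RAC1 in sg1 was 0.060 without replicate 1 of sg1 and 0.320 without replicate 2, and CYBA in sg1 was 0.038 and 0.299.

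**Figure D3:**
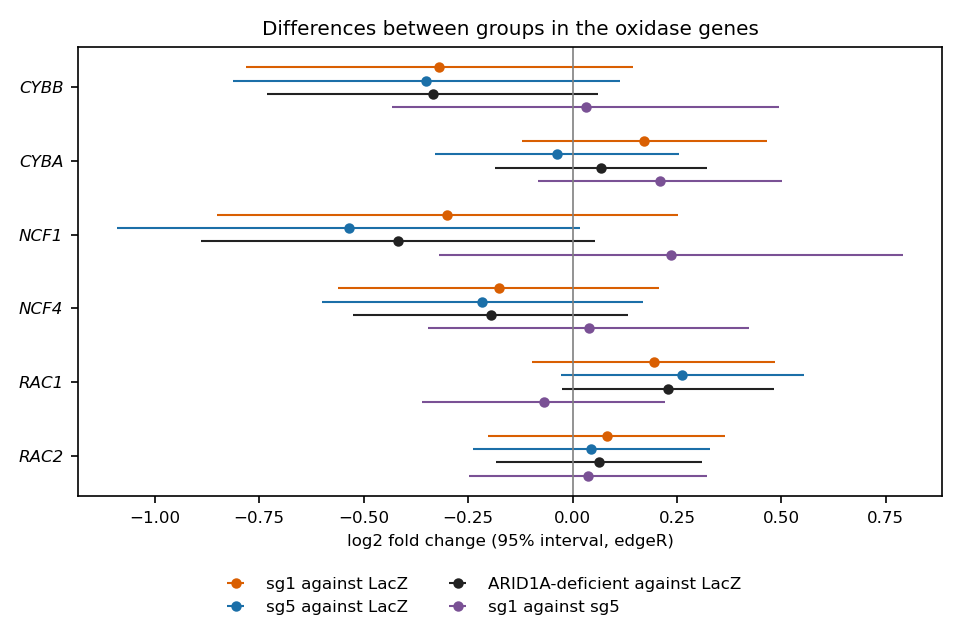
Log2 fold change of each oxidase gene with its 95% interval from edgeR, in the 4 comparisons named by color. All 24 intervals include 0; the widest belong to NCF1, the gene with the fewest counts (560 to 1246 per sample).

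Comparing the sgRNAs with each other addressed whether they acted differently on these genes. In sg1 against sg5, 0 of 6 genes were called, where 0.0054% of all genes (1 gene) were called, and 0 of 6 had an unadjusted p under 0.05. The log2 difference was 0.03 for CYBB (95% interval -0.43 to 0.49), 0.04 for NCF4 (-0.34 to 0.42 likewise), 0.04 for RAC2 and -0.07 for RAC1. It was 0.24 for NCF1 (95% interval -0.32 to 0.79) and 0.21 for CYBA (95% interval -0.08 to 0.50). The sgRNAs were therefore not distinguished in any of the 6 genes, but a difference of up to 1.73-fold in NCF1 lies within its interval.

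The lower values of CYBB, NCF1 and NCF4 were read beside the markers of myeloid cells. The summed level of the mature neutrophil list was 460.5 and 366.4 CPM in LacZ and between 158.2 and 287.6 CPM in the 4 ARID1A-deficient samples, without overlap. Of its 4 genes, MMP9, a gelatinase of late granules, carried nearly the whole sum (153.4 to 453.7 CPM; joined log2 fold change -1.02, FDR 0.141). CXCR2, a chemokine receptor, had 4.37 to 6.76 CPM, LTF had at most 4 counts and FCGR3B had 0. Without both libraries that stood apart, which leaves 1 sample each of sg1 and sg5, the joined value of MMP9 was -1.11. All 5 promyelocyte markers tested had negative values in both sgRNAs, and 0 of 5 were called in the fit of all 6 samples. AZU1, CTSG and CD33 lay below both controls in all 4 ARID1A-deficient samples, which held for 10.4% of all genes tested. MPO and PRTN3 did so in 3 of the 4. In replicate 1 of sg1, PRTN3 exceeded both controls (599.6 CPM against 459.1 and 498.2). CTSG, a granule protease, had a joined log2 fold change of -0.52 (FDR 0.265) and AZU1, an antimicrobial granule protein, -0.35 (FDR 0.349). Without both libraries these were -0.40 and -0.35. Of the monocyte markers, CD14 was below both controls in all 4 samples, at 0.20 to 0.91 CPM over all 6, and FCGR3A had 0 counts. The part of these cells or their state in the levels of the oxidase genes was not tested.

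The patterns of the 6 genes over the 6 samples fell apart into those that moved together and those that did not. Over log2 CPM, Pearson's r was 0.96 between CYBB and NCF4, 0.89 between CYBB and NCF1 and 0.75 between NCF1 and NCF4. RAC1 ran opposite to all 3, with r of -0.75 to CYBB, -0.81 to NCF4 and -0.58 to NCF1, and CYBA had r of -0.01 to CYBB although their proteins form 1 heterodimer. These values are descriptions over 6 samples that share libraries, depth and the division on the first principal component.

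Outside the family, the genes most like each member by r over the 6 samples, among 13125 genes averaging 50 counts or more, were named. They were CRAT and SLC22A18 for CYBB, HIPK2 and GTF2F1 for CYBA, RASA4B for NCF1, APOL6 and TADA3 for NCF4, DHX8 and TPM3 for RAC1, and SNX20 and C1orf56 for RAC2, with r between 0.983 and 0.997. With only 6 samples such r values are common: 302 genes exceeded 0.95 with RAC1, 243 with NCF4 and 86 with CYBB, but 16 each with CYBA and RAC2.

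The transcript make-up of each gene was examined next. CYBB-201 held 98.8% to 99.5% of the estimated counts of CYBB, RAC2-201 held 95.7% to 97.2% of RAC2, and RAC1-201 held 84.0% to 90.4% of RAC1. CYBA-201 held 69.5% to 80.8% of CYBA, the rest being spread over 9 other transcripts of which CYBA-210 was the largest (6.38% to 10.3%). NCF1-201 held 72.6% to 80.8% of NCF1. The shares of the main transcripts of these 5 genes overlapped between LacZ and the ARID1A-deficient samples.

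In NCF4, by contrast, 2 coding transcripts held most of the counts, with NCF4-202 ahead of NCF4-201 in 5 of the 6 samples. NCF4-201 (1396 bases, 10 exons) and NCF4-202 (1641 bases, 9 exons) have 8 exons with the same boundaries. NCF4-201 made up 42.0% and 40.6% of their joint counts in LacZ, 42.8% and 39.6% for sg1, and 50.8% and 40.2% for sg5. Replicate 1 of sg5 alone lay above the others, which ran from 39.6% to 42.8% and included its partner replicate.

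RAC1 has an alternative coding form, RAC1-202, with an extra exon that RAC1-201 lacks and that is known from the splice form Rac1b. The exon is shown because it holds the bases that this splice form adds, although the transcripts, which have only 4 exons with the same boundaries, differ elsewhere too (exon 4 of RAC1-202, 57 bases, chr7:6398662-6398718, plus strand, GRCh38):
RAC1-202: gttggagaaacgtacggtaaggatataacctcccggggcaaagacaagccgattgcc
RAC1-202 took 2.22% and 7.11% of the RAC1 counts in LacZ, 0.725% and 1.55% for sg1, and 2.40% and 0.470% for sg5. Replicate 1 of sg5 lay between the controls. Among the noncoding transcripts, RAC1-204 took 4.14% and 8.46% in LacZ, 0.481% and 3.77% for sg1, and 2.16% and 0.0675% for sg5, and RAC1-206 took 3.48% and 0%, 8.32% and 4.35%, and 5.22% and 8.63% in the same order. In the 2 libraries that stood apart, RAC1-202 and RAC1-204 were lowest and RAC1-206 highest. Such shares come from a model that divides shared reads, and no test was made of them.

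**Figure D4:**
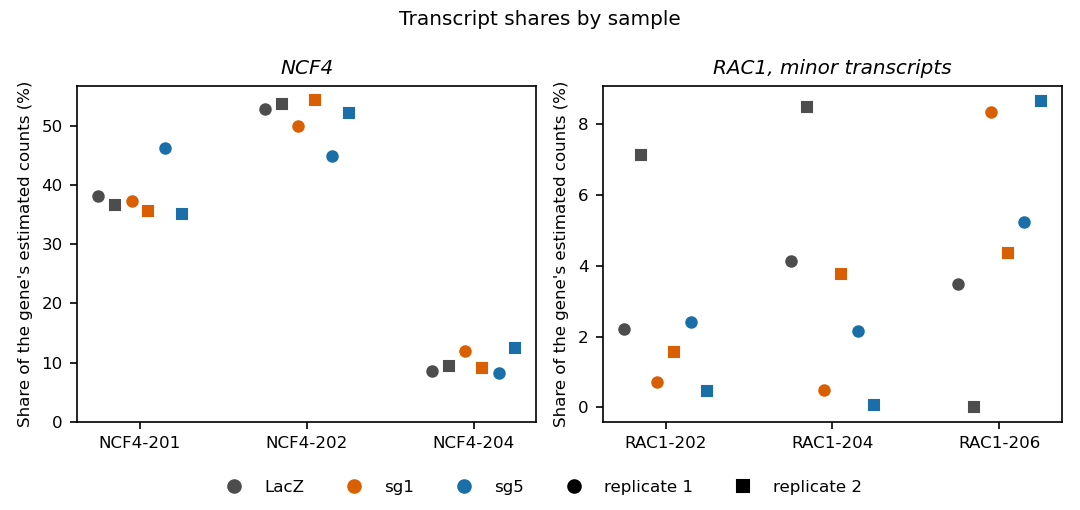
Share of a gene's estimated counts (%) held by the 3 largest NCF4 transcripts (left) and by 3 minor RAC1 transcripts (right), with 1 point per sample, color for the group and shape for the replicate. NCF4-201 is highest in replicate 1 of sg5 (46.4%), and RAC1-204 is lowest in replicate 1 of sg1 and replicate 2 of sg5.

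The wider oxidase pathway was surveyed in 8 lists with 92 genes, all matched, of which 86 passed the filter on low counts. In sg1 against LacZ, 0 of 86 were called (0.0378% of all genes were called), with 1 called by DESeq2 (EPX), against 0.501% of all genes. In sg5 against LacZ and in the joined comparison 1 of 86 was called, EPX in both, against 0.0972% and 0.167% of all genes. In sg1 against sg5 0 of 86 were called by either tool, against 0.0054% of all genes in edgeR. With shares this low, a count of 0 in a list says little about that list. An unadjusted p under 0.05 was reached by 3 of the 86 in sg1 (3.49%, against 4.15% of all genes), 9 in sg5 (10.5%, against 7.47%), 10 in the joined comparison (11.6%, against 7.21%) and 1 in sg1 against sg5 (1.16%, against 1.38%). The median joined log2 fold change was 0.03 over the 86 genes and -0.01 over all genes. All 4 ARID1A-deficient samples lay above both controls in 14 of the 86 (16.3%, against 9.72% of all genes) and below both in 6 (6.98%, against 10.4%).

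EPX, the peroxidase of eosinophil granules, belonged to the list of oxidant handling. It measured 6.34 and 6.07 CPM in LacZ, 1.80 and 2.16 for sg1, and 1.64 and 1.32 for sg5. All ARID1A-deficient samples thus lay below both controls, which held for 10.4% of all genes tested. EPX fell by 2.06 on the log2 scale in sg5 (SE 0.25; FDR 0.0372) and fell by 1.86 in the joined comparison (SE 0.20; FDR 0.0182), and its log2 fold change was -1.65 in sg1 (SE 0.24; FDR 0.143). Leaving out either LacZ replicate ended the call in sg5 (FDR 0.332 without replicate 1 and 0.281 without replicate 2) and in the joined comparison (FDR 0.245 and 0.200), as did leaving out replicate 2 of sg5 for the call in sg5 (FDR 0.103). The size of the difference hardly moved in these fits, at -2.023 and -2.089 in sg5 and -1.820 and -1.885 joined without either LacZ replicate, and -1.924 in sg5 without replicate 2 of sg5. Without both libraries that stood apart it was -1.92 in sg5 and -1.72 joined. The list was drawn up with earlier results of these data known, so the call is not independent evidence.

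The other 17 genes of oxidant handling, all tested, were not called. PRDX1, a peroxiredoxin that reduces hydrogen peroxide, measured 202.3 and 227.1 CPM in LacZ, 365.0 and 256.3 for sg1, and 249.3 and 407.5 for sg5 (joined log2 fold change 0.57, FDR 0.634). Every ARID1A-deficient sample was above the controls, and the libraries that stood apart were the highest. Without both the joined value was 0.24. HVCN1, the proton channel that balances the charge moved by the oxidase, measured 71.2 and 52.3 CPM in LacZ, 88.1 and 73.1 for sg1, and 87.6 and 77.8 for sg5 (joined log2 fold change 0.40, FDR 0.600). It too was above both controls in all 4 samples, as were SOD1 and TXN, which held for 9.72% of all genes tested.

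Of the enzymes that supply NADPH, 0 of 8 were called. PGD, of the pentose phosphate pathway, measured 263.4 and 257.2 CPM in LacZ, 322.6 and 289.8 for sg1, and 309.3 and 326.7 for sg5 (joined log2 fold change 0.26, FDR 0.634). ME1, the cytosolic malic enzyme, measured 22.7 and 25.6, 21.0 and 16.1, and 16.9 and 19.7 CPM in the same order (joined log2 fold change -0.39, FDR 0.612). PGD was thus above and ME1 below both controls in all 4 samples, which held for 9.72% and 10.4% of all genes tested. H6PD, the enzyme of the endoplasmic reticulum, had its lowest values in the 2 libraries that stood apart (32.5 and 24.4 CPM against 47.8 to 58.3). Its joined log2 fold change was -0.28 with all samples and 0.10 without both.

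Of the receptors that trigger the oxidase, 14 of 15 were tested and 0 were called. PTAFR, the receptor for platelet-activating factor, measured 42.6 and 32.3 CPM in LacZ, 61.5 and 51.2 for sg1, and 63.8 and 49.5 for sg5. Its joined log2 fold change was 0.59 (SE 0.16; 95% interval 0.23 to 0.96; FDR 0.363), with similar values of 0.59 in sg1 and 0.60 in sg5. DESeq2 called it in the joined comparison, as did edgeR without the low-count filter. C5AR1, the receptor for the complement fragment C5a, measured 38.0 and 45.7, 21.3 and 32.7, and 33.9 and 8.37 CPM in the same order (joined log2 fold change -0.81, FDR 0.782). Without both libraries that stood apart the joined value of C5AR1 was -0.33. FPR2, a formyl peptide receptor, was near the limit of detection at 0.09 to 0.55 CPM.

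The signaling genes were also surveyed. Of 16 activating kinases 0 were called, and PRKCB (protein kinase C beta, which phosphorylates p47phox) had the largest joined value, 0.24 (FDR 0.680), followed by PAK2 at 0.19 and IRAK4 at -0.16. Of 12 regulators of Rac 0 were called. BCR, which has a domain that inactivates Rac, measured 47.2 and 49.4 CPM in LacZ and 56.2 to 57.5 in the 4 ARID1A-deficient samples (joined log2 fold change 0.24, FDR 0.651). Such a position above both controls held for 9.72% of all genes tested. ARHGDIA, an inhibitor that keeps Rac in the cytosol, had a joined value of 0.17, and TIAM1, an exchange factor with at most 0.47 CPM, had -0.54.

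Of 10 transcription factors known to act on oxidase genes, 0 were called. SPI1, which encodes PU.1, measured 211.7 and 209.0 CPM in LacZ, 241.0 and 196.5 for sg1, and 190.2 and 199.1 for sg5 (joined log2 fold change -0.03, 95% interval -0.28 to 0.23). IRF8, a partner of PU.1, had a joined value of 0.32 (FDR 0.687), IRF1 had 0.22 (FDR 0.729) and CEBPA, a granulocytic factor, had -0.30 (FDR 0.742). Among the relatives of NOX2, 5 of 10 genes passed the filter and 0 were called. NOX4 (0.06 to 0.36 CPM), NOX5 (0.26 to 0.65 CPM) and NOXA1 (0.87 to 2.73 CPM), with joined values of 1.42, -0.58 and -0.28, were all far below CYBB in counts.

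**Figure D5:**
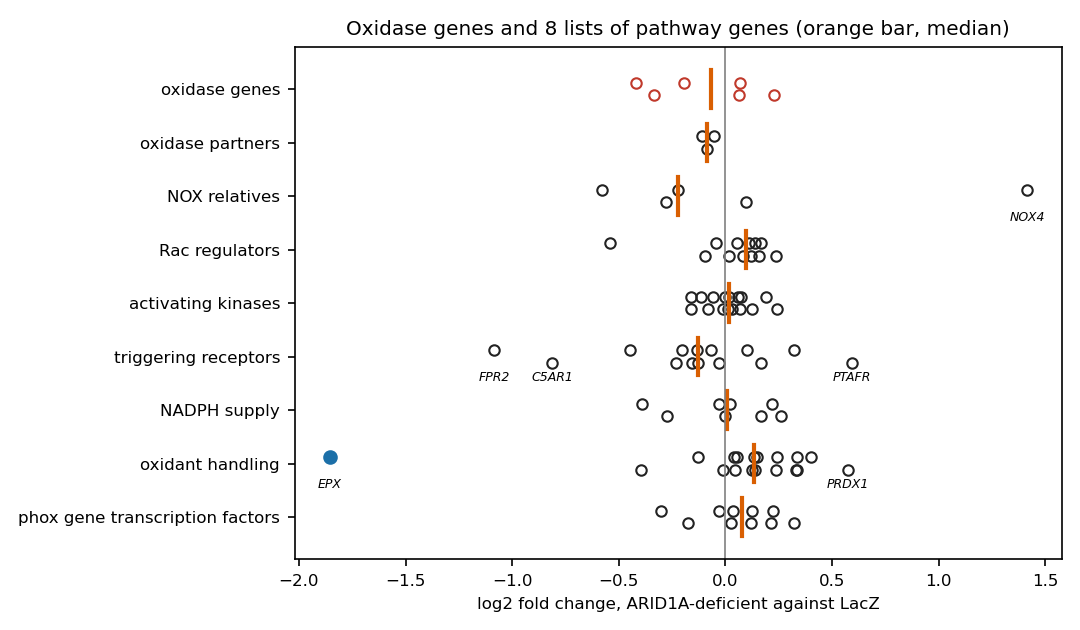
Joined log2 fold change (ARID1A-deficient against LacZ) of the 6 oxidase genes and of the 86 pathway genes tested, by list; each circle is a gene and the orange bar is the median of the list. The filled circle is EPX (-1.86), the only gene shown that passed an FDR of 0.1.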

How the data were processed

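Libraries of total RNA from NB4 cells (TruSeq RNA kit) were quantified by the authors per transcript. The submitters' processing notes name kallisto, DESeq2 and hg19 without versions, and the human transcript set is not given in the sources used here. The deposited values were estimated counts, in which reads shared by transcripts are divided by a model, and TPM, scaled by the authors for effective length and depth. The deposited columns of transcript length and effective length served for a length offset.

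Of 196354 transcripts, 181857 (92.6%) matched GENCODE release 29 (GRCh38) by identifier without version, and they were summed to genes and rounded. Unmatched transcripts were not used. Gene and exon coordinates come from that match. Counts were tested with edgeR 4.0.16 (R 4.3.3; filterByExpr minimum count 10, TMM, robust quasi-likelihood F-test) over all 6 samples with group as the only term. The joined comparison averaged sg1 and sg5. Benjamini-Hochberg adjustment ran over 18514 genes (false discovery rate, FDR, 0.1), and standard errors were derived from the F statistic. Precision follows from depth and from a common biological coefficient of variation of 16.6%. The labels do not say whether replicates were separate cultures, so p-values measure the spread between these samples. Functions were tested on simulated data.

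The genes, lists and tests were chosen with earlier results of these data known. Named were the 6 genes, NCF1B, NCF1C, ARID1A, CYBC1, listed genes under the FDR, up to 3 genes per list with the largest joined change, and the 2 genes most like each member (log2 CPM, prior count 2); 2 genes that this rule names are not reported here, and 1 of them was left out of its list. SOD1, TXN, RAC3, RAP1A, SPI1, CYBA-210 and marker genes were named after their values were seen. Alternatives were DESeq2 1.42.0, its size factors, no low-count filter, a length offset, a replicate block, no robust estimation, only the groups compared, FDR 0.05, NCF1 summed with its copies, and each replicate left out. Leaving out both libraries that stood apart was added after the data had been seen.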

Additional observations from a re-analysis of the deposited data

How the results depend on the processing

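With 2 replicates a group, 1 library can decide a call, and the 2 libraries that stood apart match no batch in the labels. The count of oxidase genes called stayed at 0 of 6 in all 4 comparisons under DESeq2, its size factors, no low-count filter, the length offset, the replicate block, no robust estimation, FDR 0.05 and NCF1 summed with its copies. The fit of only the groups compared, which was not run for the joined comparison, also called 0 of 6 in each of the others. Leaving out each replicate gave 0 to 1 oxidase genes in the joined comparison (CYBB without replicate 1 of sg5) and 0 elsewhere; without both libraries that stood apart, 1 was called in sg1 and 1 in the joined comparison (NCF1). The cause was not tested. In that fit NCF4 in sg5 turned to 0.021, and in sg1 against sg5 CYBB turned to -0.277, NCF1 to -0.244, NCF4 to -0.113 and RAC2 to -0.089.

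Leaving out 1 replicate turned the sign of small differences that were not called. These log2 fold changes ranged from -0.012 to 0.182 for RAC2 in sg1, and in sg5 from -0.104 to 0.049 for CYBA, -0.481 to 0.014 for NCF4 and -0.042 to 0.154 for RAC2. Joined values ranged from -0.004 to 0.150 for CYBA and -0.027 to 0.168 for RAC2. In sg1 against sg5 they ranged from -0.277 to 0.410 for CYBB, -0.054 to 0.583 for NCF1, -0.194 to 0.302 for NCF4, -0.214 to 0.045 for RAC1 and -0.034 to 0.096 for RAC2. The order by TPM was the same with protein-coding transcripts only, and differences in TPM moved by less than the spread between replicates, although RAC2 in sg5 turned from 0.045 to -0.020.

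Pathway genes called (0 in sg1, 1 in sg5 and 1 joined) numbered 4, 6 and 5 without the low-count filter (1.05%, 1.92% and 2.13% of all genes were called) and 5, 8 and 9 without both libraries that stood apart (2.2%, 4.09% and 4.2%). Without the low-count filter the genes called were C5AR1, EPX, PRDX1 and PTAFR in both sgRNAs, with CEBPA and GSR added in sg5. In the joined comparison they were C5AR1, EPX, HVCN1, PRDX1 and PTAFR. DESeq2 called 1 in sg1, 1 in sg5 and 2 joined (0.501%, 1.14% and 1.46% of all genes), and the fit of only the groups compared called 1 in sg1 (0.0996%). Leaving out replicates gave 0 to 1 in sg1, 0 to 3 in sg5 and 0 to 2 joined. The replicate block ended the EPX call in sg5 and in the joined comparison, where it left 0 pathway genes (FDR 0.243 and 0.173 for EPX, with log2 fold changes of -2.065 and -1.856). Same-numbered replicates did not deviate together over all genes (r of 0.072, 0.012 and -0.206). The 2 libraries that stood apart carry different replicate numbers, so these values cannot decide whether the numbers pair the samples. Over all genes the block left 1, 1, 0 and 3 calls in sg1, sg5, sg1 against sg5 and the joined comparison.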

Other observations

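Ratios within a sample, which need no scaling between libraries, were also computed from TPM for partners of the complex. CYBA was 4.15 and 5.11 times the level of CYBB in LacZ, 7.02 and 5.71 times in sg1, and 4.88 and 7.58 times in sg5. The ratio was highest in the 2 libraries that stood apart, and without them the ARID1A-deficient values were 5.71 and 4.88, of which the second lay between the controls. RAC1 was 0.724 and 0.894 times the level of RAC2 in LacZ, 0.943 and 0.809 times in sg1, and 0.850 and 1.06 times in sg5, so that RAC2 exceeded RAC1 in every sample other than replicate 2 of sg5. No test was made of these ratios.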
